A study of Mus musculus with 18 samples.

Results

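The regions described here are stretches of chromatin that carried a called H3K27me1 peak and lay outside every called peak of H3K27me2, H3K27me3 and H3K36me2 in mouse embryonic stem cells. They were chosen by the authors' peak calls for 4 marks in untreated cells: rows of the H3K27me1 list on chromosomes 1 to 19, at least 2000 bp long, with 0 bp covered by a row of the other 3 lists. Of the 45524 rows of the H3K27me1 list, 9948 met this rule, and they are called H3K27me1-only peaks below. The name refers to these lists alone, because H3K36me3, which had tracks but no list in use here, did not enter the rule. They covered 68.3 Mb of the 513 Mb under the 43446 autosomal H3K27me1 peaks of 2000 bp or longer. Their median length was 5000 bp, the middle 50% ran from 3500 to 8000 bp, and the longest was 124500 bp. The other 33498 H3K27me1 peaks had a median of 8500 bp. Of those, 29720 touched an H3K36me2 peak, 3491 touched an H3K27me2 peak without H3K36me2, and 287 touched an H3K27me3 peak alone.

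Chromatin immunoprecipitation sequencing was done on E14 cells, a single embryonic stem cell line, grown on gelatin in 2i/LIF medium, which holds the cells in the undifferentiated state by blocking GSK3 and MEK in the presence of LIF. The medium of all groups also held arginine and lysine in light, medium or heavy isotope forms. Untreated cells gave 2 libraries without spike-in for each of H3K27me1, H3K27me2, H3K27me3, H3K36me2 and H3K36me3. Exposure to the EZH2 inhibitor EPZ-6438 at 10 µM, or to DMSO, lasted 7 days and gave 2 libraries per treatment for H3K27me3 and for H3K36me2, with Drosophila S2 chromatin mixed in at 0.05% of the total. The labels do not say whether replicates came from separate cultures, so every p-value measures only the spread between these libraries, which may be technical. H3K27me1 and H3K36me3 were not followed after the inhibitor in these libraries.

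The untreated libraries held an estimated 17.3 to 50.9 M reads each (M, 10 to the power 6), and 6 of the 8 quantitative ones 16.3 to 84.4 M. The exceptions were the H3K27me3 libraries after the inhibitor, with 0.749 and 1.34 M. Mean H3K36me3 over the gene body, a mark of transcription, ran from 1.11 to 7.65 times the library mean in the 7 stem cell markers examined (median 5.69). In 14 markers of endoderm, mesoderm, neural, trophoblast and fibroblast cells it ran from 0.473 to 2.78 (median 1.83).

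Lysine 27 of histone H3 can hold up to 3 methyl groups, added mainly by PRC2 through its catalytic subunit EZH2 or EZH1. H3K27me3 is known for silenced genes, H3K27me2 for broad tracts between genes, and H3K27me1 for the bodies of transcribed genes, where SETD2 places H3K36me3. H3K36me2 is placed by enzymes such as NSD1 over broad regions inside and between genes, and methylated H3K36 is known to hinder PRC2 on the same histone tail.

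H3K27me1-only peaks seldom held a gene start. On the 18 autosomes with start site records, 272 of 9552 peaks (2.85%) covered a start, against 4803 of 28707 H3K27me1 peaks with H3K36me2 (16.7%), which were longer (median 9000 bp). The share was 6.03% in peaks with H3K27me2 and no H3K36me2 (median 6500 bp) and 5.07% in those with H3K27me3 alone (median 6000 bp). Among H3K27me1-only peaks the share was 0.870% below 3000 bp and 10.9% from 20000 bp, so the contrast is not one at equal length. In all, 304 promoters of 278 genes, taken as the 250 bases before and 50 after a start, lay wholly inside. The promoters of protein-coding genes among them (215) had a median of 5 CG dinucleotides. The median was 17 in the 4978 coding promoters inside peaks with H3K36me2 14 over all 20085 coding promoters, and 3 in the 141 inside peaks with H3K27me2 and no H3K36me2. A ratio of observed to expected CG above 0.6 was found in 40.0% of the coding promoters in H3K27me1-only peaks, against 57.3% with H3K36me2, 35.5% with H3K27me2 and no H3K36me2, and 48.9% overall. The range is shown by 4 RefSeq promoters (GRCm38.p6, 300 bases, written 5′ to 3′ on the gene's strand, CG in capitals). They are the pair with the most and the pair with the fewest CG among the 20 named coding genes whose promoter lay in the H3K27me1-only peaks of highest H3K36me3, and were chosen after the values were seen. Synrg (a clathrin adaptor partner, chr11:83964181-83964480, plus strand) has 25 CG and sits at the edge of a 23000 bp peak that runs into Ddx52 upstream. Dhx33 (an RNA helicase, chr11:71004383-71004682, minus strand) has 24. Ddx42 (an RNA helicase linked to splicing, chr11:106230416-106230715, plus strand) has 1, and Pla2g4c (a phospholipase A2, chr7:13325417-13325716, plus strand) has 2.
Synrg promoter: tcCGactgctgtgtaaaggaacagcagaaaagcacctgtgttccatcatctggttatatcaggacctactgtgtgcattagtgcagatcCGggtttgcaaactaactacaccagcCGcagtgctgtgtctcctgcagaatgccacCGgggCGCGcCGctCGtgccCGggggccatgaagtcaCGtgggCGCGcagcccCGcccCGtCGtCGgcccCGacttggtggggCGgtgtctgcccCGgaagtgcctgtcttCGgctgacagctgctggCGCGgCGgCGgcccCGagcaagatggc
Dhx33 promoter: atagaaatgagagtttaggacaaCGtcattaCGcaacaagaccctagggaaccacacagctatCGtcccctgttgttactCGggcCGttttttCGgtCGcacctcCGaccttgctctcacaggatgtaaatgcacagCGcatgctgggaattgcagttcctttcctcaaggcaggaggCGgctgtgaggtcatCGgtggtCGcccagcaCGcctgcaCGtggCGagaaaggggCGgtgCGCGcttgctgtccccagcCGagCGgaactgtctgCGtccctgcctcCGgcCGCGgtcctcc
Ddx42 promoter: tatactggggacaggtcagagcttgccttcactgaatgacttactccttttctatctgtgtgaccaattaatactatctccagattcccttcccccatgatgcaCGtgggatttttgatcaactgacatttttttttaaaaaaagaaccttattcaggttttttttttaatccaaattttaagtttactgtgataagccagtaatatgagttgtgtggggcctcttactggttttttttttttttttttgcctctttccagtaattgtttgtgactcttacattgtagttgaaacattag
Pla2g4c promoter: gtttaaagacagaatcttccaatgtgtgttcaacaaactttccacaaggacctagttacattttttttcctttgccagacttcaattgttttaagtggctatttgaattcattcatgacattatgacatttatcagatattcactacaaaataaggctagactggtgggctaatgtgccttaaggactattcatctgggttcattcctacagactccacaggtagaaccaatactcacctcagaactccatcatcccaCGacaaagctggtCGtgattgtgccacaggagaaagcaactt

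The peaks around these promoters all carried H3K36me3 well above the library mean. The 2 libraries gave 5.21 and 4.53 times the mean at Synrg, 5.38 and 5.30 at Dhx33, 5.24 and 4.77 at Ddx42 and 6.21 and 6.73 at Pla2g4c. These peaks also reach over neighbouring genes, and both their H3K36me3 and the CG numbers are set by the choice of examples.

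Among 919 autosomal miRNA hairpins, 17 (1.85%) lay in H3K27me1-only peaks. These peaks held 68312 of the 2462755 autosomal windows of 1 kb, a larger share, so the count sets nothing apart. Of the peaks with a hairpin, the one with the highest H3K36me3 was chr5:138162001-138170000. It covers sequence of Mcm7, a subunit of the replicative helicase, of Cops6, and of the miR-106b cluster. Its H3K36me3 was 9.82 and 12.3 times the library mean, its H3K27me1 2.47 and 1.31, and its H3K27me3 0.994 and 0.723. The mature sequences from RefSeq (GRCm38.p6) are shown with the seed, bases 2 to 8, in capitals, to identify the cluster. miR-93-5p and miR-106b-5p share the seed AAAGUGC, and miR-25-3p has AUUGCAC.
miR-25-3p: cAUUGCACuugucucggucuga
miR-93-5p: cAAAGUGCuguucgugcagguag
miR-106b-5p: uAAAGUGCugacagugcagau

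Levels were computed per 1 kb window and divided by the mean of the same library over autosomal windows, so a value of 1 is the library's genome average. H3K27me1 in H3K27me1-only peaks stood at 1.97 and 1.72. The marks whose lists were used to exclude regions were below average: H3K27me2 at 0.833 and 0.845, H3K36me2 at 0.677 and 0.718, and H3K27me3 at 0.195 and 0.208. These levels describe the choice of regions and are given without a test. H3K27me1 itself was close to that of the other H3K27me1 peaks (2.04 ± 0.164, SD, n = 2, against 1.85 ± 0.172).

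H3K36me3, which the rule did not use, was at 1.87 and 1.68 in H3K27me1-only peaks. Its mean of 1.77 ± 0.139 (SD, n = 2) was above the genome average in both libraries and below the 2.99 ± 0.0860 of the other H3K27me1 peaks. Within each library the ratio of the former to the latter was 0.640 and 0.549 (0.594 ± 0.0637). The difference from 1 was larger than the spread between the libraries, and no test was run on these 2 values. The sets differed among themselves: H3K36me3 was 3.11 ± 0.0929 in peaks with H3K36me2, 1.46 ± 0.00399 in those with H3K27me2 and no H3K36me2, and 0.765 ± 0.0324 in those with H3K27me3 alone. H3K27me1-only peaks thus lay below the first set and above the other two. A typical peak was lower than these means, which count every window: the median over peaks was 0.976 and 0.890. H3K36me3 exceeded the library mean in both libraries in 4130 peaks (41.5%), against a background of 64.2% of all H3K27me1 peaks. The share was 76.9% in peaks with H3K36me2 and 25.4% in peaks with H3K27me2 and no H3K36me2.

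**Figure D1:**
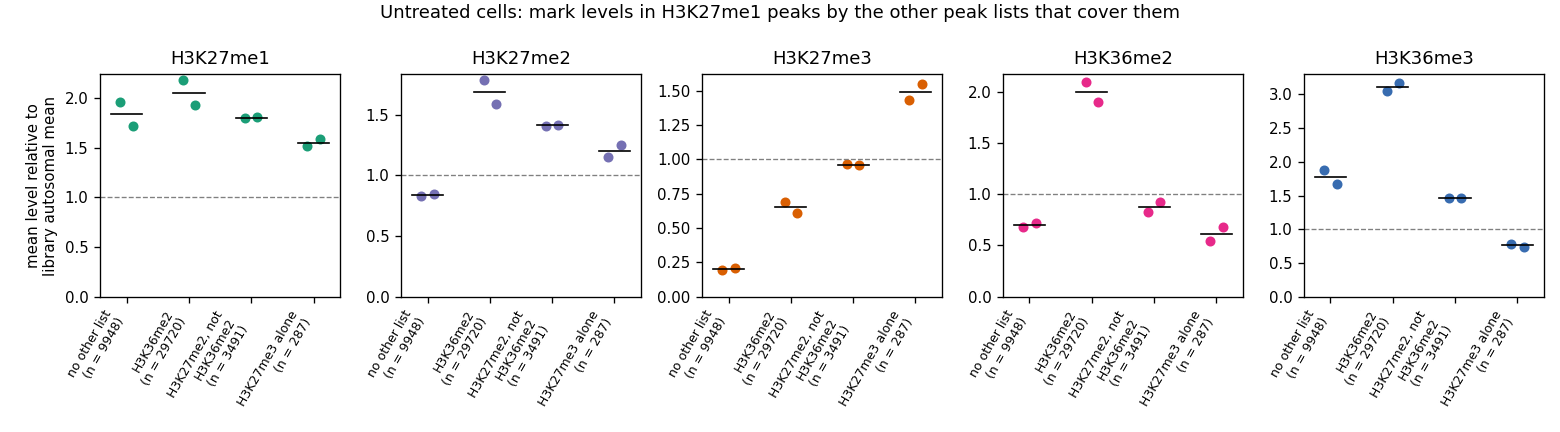
Mean level of 5 marks in untreated cells (y axis, relative to the library's autosomal mean, linear scale from 0) in 4 sets of H3K27me1 peaks (x axis); each point is 1 library, each short black line the mean of 2, and the dashed line marks 1. In peaks with no other list H3K27me3 sits at 0.195 and 0.208 while H3K36me3 sits at 1.87 and 1.68, above 1 but below the set with H3K36me2.

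The DMSO libraries did not enter the rule, but come from the same cell line, and also gave levels below the library mean. H3K27me3 in H3K27me1-only peaks was 0.265 and 0.270 after DMSO, above the 0.195 and 0.208 of the untreated libraries, and 0.327 and 0.346 of the level in other H3K27me1 peaks. H3K36me2 was 0.716 and 0.738 of the library mean, and 0.392 and 0.389 of that in the other peaks. For both marks the distance from the other peaks was larger than the difference between the DMSO libraries. The rule had removed regions with peaks of these marks, so these levels too describe the choice of regions and are given without a test.

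Single peaks varied widely in H3K36me3. Over the 9948 peaks the mean of the 2 H3K36me3 libraries ran from 0.0337 to 16.6, with a 5th to 95th percentile range of 0.191 to 3.79. Between those percentiles H3K27me3 ran from 0.0334 to 0.733 and H3K27me1 from 1.23 to 2.84. Across peaks, H3K36me3 and H3K27me3 were inversely related, with Spearman rho from -0.63 to -0.53 over the 4 pairings of a library of each. H3K27me2 and H3K27me3 rose together (0.68 to 0.75). The relation of H3K27me1 to H3K36me3 was positive but depended on the library, from 0.26 to 0.60. That of H3K27me1 to H3K27me3 changed sign with it, from -0.24 to 0.12. The 2 H3K27me1 libraries correlated at 0.73 with each other, less than the 0.94 of H3K36me3. These are descriptions across regions, which are not replicates and share mappability, base composition and depth.

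A count of 4061 H3K27me1-only peaks (40.8%) overlapped a protein-coding gene, and 5045 (50.7%) overlapped no annotated gene. Counted in bases, 54.7% of the sequence in H3K27me1-only peaks lay in coding genes, against 64.8% in those with H3K36me2 and 40.0% of all autosomal sequence. The overlap was 60.2% in H3K27me1 peaks with H3K36me2, 40.5% in those with H3K27me2 and no H3K36me2, and 35.5% in those with H3K27me3 alone. The median distance to the nearest start was 62.3 kb, against 22.5 kb for peaks with H3K36me2, 47.3 kb for those with H3K27me2 and no H3K36me2, and 62.2 kb for those with H3K27me3 alone.

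Peaks inside and outside coding genes differed in marks. H3K36me3 was 2.51 ± 0.213 (SD, n = 2) in the 4061 genic peaks and 0.752 ± 0.0367 in the 5887 others. It exceeded the library mean in both libraries in 2832 of the former (69.7%) and in 1298 of the latter. H3K27me3 went the other way, at 0.116 ± 0.00254 against 0.321 ± 0.0195, and H3K27me2 was 0.717 ± 0.0143 against 1.01 ± 0.000165. H3K36me2 was 0.713 ± 0.000435 and 0.676 ± 0.0692, and H3K27me1 1.87 ± 0.239 and 1.81 ± 0.0786. Each difference in H3K36me3, H3K27me3 and H3K27me2 was larger than the spread between libraries, while that in H3K27me1 was not. That in H3K36me2 was smaller than the SD of 0.0692 in the peaks outside genes.

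Length followed the same division. Of 1532 peaks from 2000 bp to below 3000 bp, 22.5% overlapped a coding gene. The share was 27.1% from 3000, 42.3% from 5000, 74.4% from 10000 and 98.6% (425 of 431) from 20000 bp. Mean H3K36me3 over windows was 1.24 and 1.22 in the shortest class, lowest from 3000 to below 5000 bp (1.06 and 0.983), and 3.46 and 3.07 in the longest. H3K27me3 was 0.312 in the shortest and 0.0693 in the longest class, and H3K27me2 1.14 and 0.603. A longer region has more sequence in which to meet a gene, and the part of this in the shares was not tested.

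**Figure D2:**
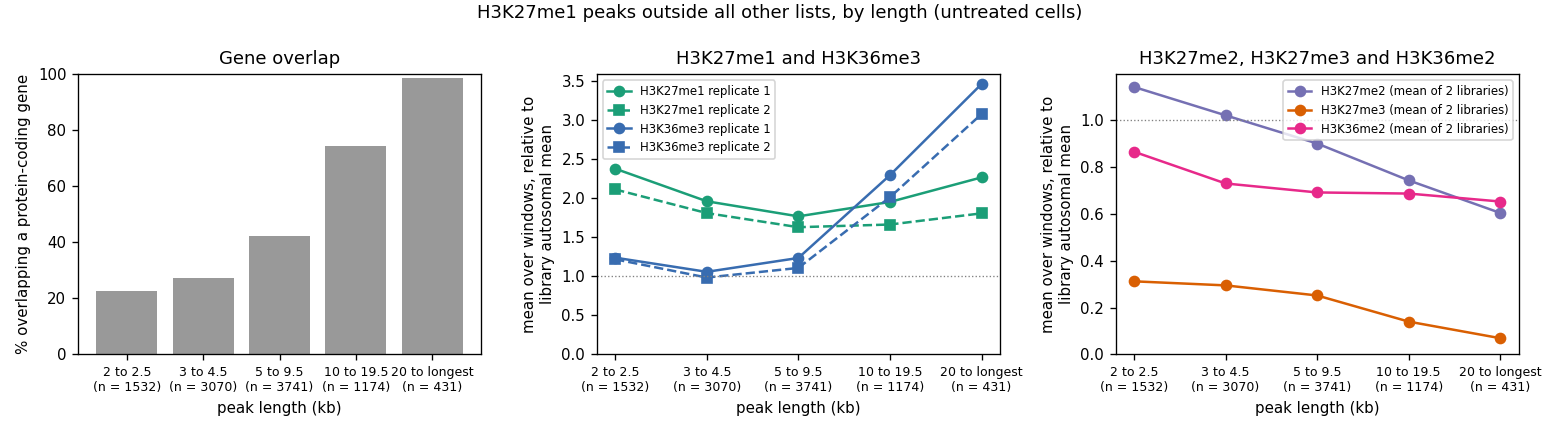
H3K27me1-only peaks in 5 length classes (x axis, kb, with the number of peaks): share overlapping a protein-coding gene (left, percent), H3K27me1 and H3K36me3 in each untreated library (middle) and the other marks as the mean of 2 libraries (right), both relative to the library mean. The share in genes reaches 98.6% and H3K36me3 3.46 and 3.07 in the class of 20 kb or longer, where H3K27me3 is lowest at 0.0693.

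The 5 longest peaks all lay over protein-coding genes, with H3K36me3 of 2.88 to 5.70. The longest, chr4:32659001-32783500, covered 98.4% of Mdn1, the AAA ATPase midasin of ribosome assembly. Its levels in the 2 libraries were 2.97 and 2.33 for H3K27me1, 5.70 and 5.51 for H3K36me3, 0.0612 and 0.0569 for H3K27me3, and 0.562 and 0.493 for H3K36me2. The next were chr17:74599001-74684000 in Birc6, an inhibitor of apoptosis with ubiquitin ligase activity, chr11:70889501-70966500 over Rabep1 and Nup88, chr4:123418501-123495000 in Macf1, a cytoskeletal crosslinker, and chr14:31021001-31095000 over Pbrm1, a subunit of the PBAF remodelling complex. Their H3K27me3 lay between 0.0481 and 0.0685 in both untreated libraries. In untreated cells all 5 thus had H3K36me3 and H3K27me1 above average and H3K27me3 near 0.

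The 5 peaks with the highest H3K36me3 ranged from 2500 to 12000 bp and also lay in protein-coding genes. The peak at chr17:23815501-23823000 in Srrm2, a splicing factor gene, had 15.9 and 17.3 times the library mean. Those in Snx17 and Zfp513 (chr5:31194501-31201000) had 11.9 and 13.9, and in Mybl2, a cell cycle transcription factor (chr2:163070501-163082500), 11.3 and 12.4. Rbm15, part of the RNA m6A writer complex (chr3:107330001-107332500), had 9.91 and 12.3, and Eno1, a glycolytic enzyme (chr4:150240501-150246000), 11.1 and 11.1. Their H3K27me1 differed between libraries, from 2.08 to 3.83 in the first and from 1.17 to 2.21 in the second. At the other end, 5 peaks had H3K36me3 of at most 0.0697, from 0 to 3 reads a library. The lowest were chr3:12562501-12565500 (1 read in each library), chr13:82152501-82158500, chr2:143448501-143452500, chr14:108531501-108535500 and chr2:94938501-94943500. Of these, 4 overlapped no gene and the chr2:143448501-143452500 peak a long noncoding RNA, Gm33599. Their H3K27me1 was at most 1.61 and their H3K36me2 0.0863 to 0.298, so both stood below the averages of all H3K27me1-only peaks.

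The strongest H3K27me1 was found outside coding genes and went with H3K27me2 above average, but not with H3K27me2 alone. The peak at chr13:12857001-12866000 over the pseudogene Gm18262 had 10.3 and 7.96 times the library mean, and its neighbour chr13:12823501-12826000 had 9.82 and 8.24. The next, at chr5:145686501-145691000, chr12:3015501-3021000 and chr17:47075501-47078000, had 5.80 to 8.16. H3K27me2 in these 5 was 1.82 to 2.65, above the average of 0.839 ± 0.00839 (SD, n = 2) for the whole set. Their H3K36me3, as the mean of 2 libraries, ran from 0.832 at chr12:3015501-3021000 to 4.03 at chr17:47075501-47078000, above the library mean in most. H3K36me2 was 0.367 to 2.07 as the mean of the untreated libraries, and 1.22 to 2.58 in single libraries after DMSO. After the inhibitor, H3K27me3 relative to the library mean was 4.21 and 12.4 at chr13:12857001-12866000 (15 and 79 reads). It was 1.26 and 15.9 at chr5:145686501-145691000 (2 and 45 reads), so the libraries disagreed at both sites. At the other 3 they were closer, with few reads. The values were 11.4 and 7.76 at chr13:12823501-12826000 (9 and 11 reads) and 7.07 and 10.2 at chr12:3015501-3021000 (14 and 36 reads). At chr17:47075501-47078000 they were 3.79 and 4.94 (3 and 7 reads). After DMSO H3K27me3 in the 5 peaks was 0.348 to 1.85 times the library mean. No input library was used here, and the part of background signal in these values was not tested.

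H3K27me1-only peaks overlapped 2261 of 20665 autosomal protein-coding genes (10.9%). Of these genes, 1371 held 1 peak, 154 held 5 or more, and 732 had over 50% of their length covered. Stag1, a cohesin subunit, held 19 peaks over 174000 bp (48.2% of the gene), Vps13b, a lipid transfer protein, also 19 over 150500 bp, and Exoc4, an exocyst subunit, 15 over 146500 bp. Birc6 had 76.5% of its length covered by 4 peaks and Usp34, a deubiquitinase, 69.9% by 5. H3K36me3 over the gene bodies was 1.31 and 1.14 at Stag1, 1.01 and 0.901 at Vps13b, 3.03 and 2.60 at Birc6 and 2.88 and 2.23 at Usp34.

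Several genes for the enzymes of these marks held H3K27me1-only peaks. Of 11 genes of PRC2 and its partners, 3 held one (27.3%, against 10.9% of all coding genes): Ezh2, the target of the inhibitor, Suz12, a core subunit, and Rbbp4, a histone-binding subunit. In all, 3 overlapped Ezh2. Of these, chr6:47494501-47538500 also ran over the neighbouring Cul1, which its larger part covered. The longer of those wholly inside Ezh2, chr6:47540501-47573500 (33000 bp), had H3K36me3 of 3.66 and 3.17 and H3K27me3 of 0.0315 and 0.0243. Suz12 held chr11:80001001-80009500 (H3K36me3 5.12 and 4.75) and chr11:80026001-80030500 (6.08 and 5.86). Among 11 autosomal genes for enzymes of H3K27 and H3K36 methylation, 5 held one (45.5%): Ash1l, Nsd1 and Nsd2, which methylate H3K36, Kdm2a, an H3K36me2 demethylase, and Kdm4c, which demethylates H3K9 and H3K36. Kdm4c had 7 peaks over 76.4% of its length, and Nsd1 had 3 with H3K36me3 of 3.47 to 5.51. These short lists were chosen with earlier results of the data known, and their counts carry no test. They were not matched to all coding genes for gene length. An H3K27me1 peak of any kind was held by 10 of the 11 genes of the first list and by all 11 of the second. The median H3K27me1-only peak inside a single gene lay in a gene of 106 kb, and the part of gene length in these shares was not tested.

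None of 23 autosomal pluripotency genes, 77 ribosomal protein genes, 69 histone genes or 39 Hox genes held an H3K27me1-only peak. An H3K27me1 peak of any kind was held by 10, 19, 5 and 0 of them. Of all coding genes 10.9% held an H3K27me1-only peak, and these lists too were not matched for gene length. Of 14 housekeeping genes, Tbp, the TATA-binding protein, and Ywhaz, a 14-3-3 protein, held one. The Zfp zinc finger genes held one in 86 of 388 cases (22.2%). Olfactory receptor genes did so in 49 of 1104 (4.44%) and vomeronasal receptor genes in 31 of 352 (8.81%). An H3K27me1 peak of any kind was held by 10 of the housekeeping, 310 of the Zfp, 108 of the olfactory and 47 of the vomeronasal genes. Among genes with such a peak, the H3K27me1-only share was thus lowest in the Zfp and highest in the vomeronasal genes of these 3 families. As examples by order of symbol, H3K36me3 was 5.09 and 4.54 in the peak at Zfp105, 0.186 and 0.163 at Olfr1, 1.00 and 1.11 at Olfr1008, and 0.511 and 0.599 at Olfr1033. These few peaks do not stand for the families.

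Position along genes differed little from that of peaks with H3K36me2. Of 2631 H3K27me1-only peaks inside a single coding gene of known strand, the median centre was at 47.0% of the way from start to end (48.2% for 8229 peaks with H3K36me2). The first 20% of the gene held 16.1% (17.8%) and the last 20% held 12.3% (15.8%). In 441 genes with peaks of both kinds inside, the H3K27me1-only peaks lay nearer the end in 235 (53.3%). H3K36me3 was higher in the H3K27me1-only peaks in both libraries in 165 of these genes and lower in 223, with a median log2 ratio of -0.05 and -0.15.

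Around the centres of peaks under 10 kb, H3K27me2, H3K36me2 and H3K36me3 were higher than at 5 kb, inside and outside coding genes. H3K27me3 was so only outside them. H3K27me1 was higher at the centre too, but the peaks were called on it and 5 kb lies past their edges. Its contrast thus describes the choice of regions. Other H3K27me1 peaks were not profiled, so no shape here is shown to be particular to these peaks. In peaks under 10 kb outside coding genes (n = 5581), H3K27me1 was 1.97 and 1.83 at the centre, 0.799 and 0.828 at 5 kb and 0.885 and 0.917 at 20 kb. H3K36me3 went from 0.827 and 0.777 at the centre to 0.301 and 0.251 at 5 kb, and H3K36me2 from 0.662 and 0.761 to 0.281 and 0.343. H3K27me2 went from 1.04 and 1.03 to 0.575 and 0.609. H3K27me3 changed least, from 0.295 and 0.317 to 0.249 and 0.287, and was higher again at 20 kb (0.351 and 0.393). In 2762 genic peaks, H3K36me3 went from 1.89 and 1.71 to 1.01 and 0.823. H3K27me3 there was 0.172 and 0.183 at the centre, 0.172 and 0.191 at 5 kb and 0.333 and 0.352 at 20 kb. Windows without a read in any of the 10 untreated libraries made up 0.0179% at the centre and 2.61% at 5 kb outside coding genes, and 4.67% over all autosomes. The share of unread windows thus differed between peak and flank, and its part in the shared shape was not tested.

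**Figure D3:**
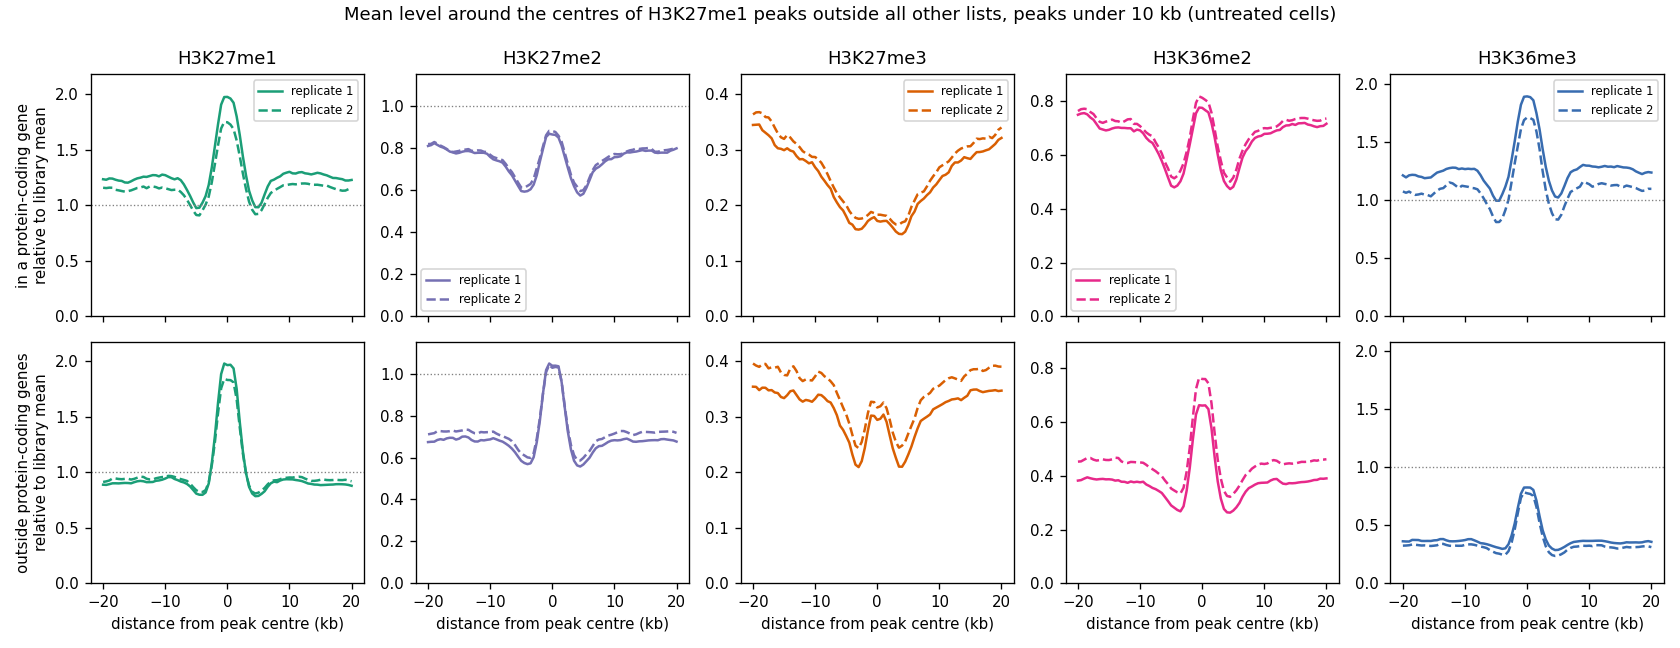
Mean level (y axis, relative to the library mean) against distance from the peak centre (x axis, kb) for 5 marks in H3K27me1-only peaks under 10 kb, in a protein-coding gene (top) or outside (bottom); each line is 1 untreated library. H3K27me1, H3K27me2, H3K36me2 and H3K36me3 are higher at the centre than at 5 kb, for H3K27me1 by the choice of peaks. H3K27me3 in genes is 0.172 and 0.183 at the centre and higher at 20 kb.

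Distances to the other lists are a description, since the rule already keeps these peaks from overlapping them. The median gap to the nearest H3K36me2 peak was 45.5 kb, to H3K27me2 53.5 kb and to H3K27me3 108 kb, and 7 kb to the next H3K27me1 peak, a list the rule does not exclude. The 1673 peaks with another list within 5000 bp had a mean H3K36me3 over peaks of 1.98, and the 8275 others 1.18. At the length threshold, 703 peaks of exactly 2000 bp had H3K27me1 of 2.34, and 661 uncovered rows of 1500 bp, just left out, had 2.65. At the overlap threshold, 181 H3K27me1 peaks with at most 500 bp under each other list had H3K27me3 of 0.366 and H3K36me2 of 0.786. By chromosome, the share of H3K27me1 peaks that were H3K27me1-only ran from 16.2% on chromosome 11 to 29.4% on chromosome 14.

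The inhibitor libraries ask how these regions, which had little H3K27me3 to begin with, responded to loss of EZH2 activity. On the authors' spike-in scale, H3K27me3 in H3K27me1-only peaks was 13.6 and 10.1 scaled reads per window after DMSO, and 0.0743 and 0.0621 after EPZ-6438. The groups did not overlap, and the level was 174-fold lower after the inhibitor (log2 -7.44, pairs of libraries from -7.77 to -7.09). The exact two-sided permutation p was 0.333, the smallest that 2 libraries against 2 can give. The other H3K27me1 peaks were 265-fold lower, and the mean over all autosomal windows changed by -9.06 on the log2 scale.

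Since the fall was smaller than the genome average, the relative level of H3K27me3 in these regions was higher. It went from 0.265 and 0.270 of the library mean to 0.775 and 0.885 (log2 1.63, exact permutation p 0.333). This was not particular to these regions: the other H3K27me1 peaks went from 0.811 and 0.780 to 1.64 and 1.57 (log2 1.01). By set the log2 change was 1.07 with H3K36me2, 0.34 with H3K27me2 and no H3K36me2, and -0.27 with H3K27me3 alone. The lower a set stood after DMSO, the larger was its change, and the rule chose regions without H3K27me3 peaks. Set against the other H3K27me1 peaks, the level in H3K27me1-only peaks went from 0.327 and 0.346 to 0.474 and 0.562 (log2 0.62, pairs from 0.45 to 0.78, exact permutation p 0.333). Genic peaks went from 0.153 and 0.159 to 0.729 and 0.692 of the library mean (log2 2.19). Peaks outside coding genes went from 0.421 and 0.423 to 0.839 and 1.15 (log2 1.24). In the 431 peaks of 20000 bp or longer, where H3K27me3 was lowest, the step was from 0.106 and 0.109 to 0.765 and 0.666 (log2 2.73), and the fall on the spike-in scale the smallest of the length classes, 79.4-fold. Levels of H3K27me3 across these classes, from 0.106 to 0.474 after DMSO, ran from 0.666 to 1.59 after the inhibitor. Whether fewer cells carried the mark or each cell carried less cannot be told apart in bulk chromatin. The inhibitor libraries hold few reads here, 20975 and 42869 in all windows of these peaks, with 0 reads in 3024 and 1177 of the 9948. How many of them come from the antibody's target and how many from background was not measured.

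**Figure D4:**
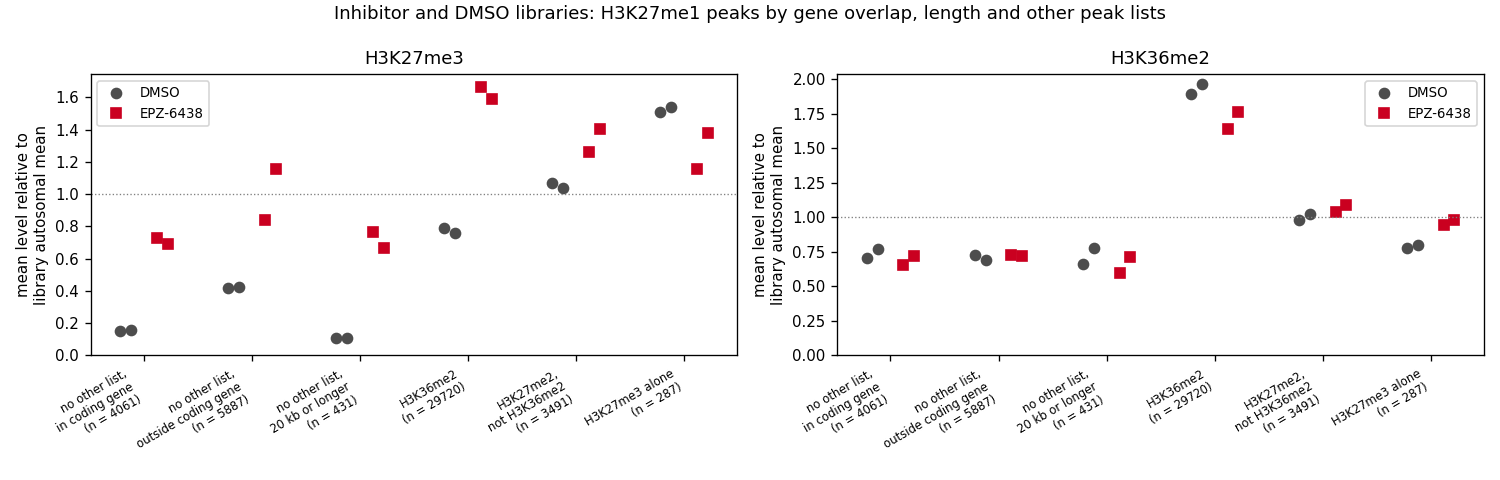
H3K27me3 (left) and H3K36me2 (right) after DMSO (circles) and EPZ-6438 (squares), each point 1 library, as mean level relative to the library's autosomal mean (y axis) in 6 sets of H3K27me1 peaks (x axis), the first 3 without another list and the third contained in them. H3K27me3 in H3K27me1-only peaks of 20 kb or longer moves from 0.106 and 0.109 to 0.765 and 0.666, and H3K36me2 stays between 0.593 and 0.781 there.

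Tested peak by peak with limma on log2(scaled reads + 1), H3K27me3 was lower after the inhibitor nearly everywhere. A peak was tested when its windows held 20 or more reads over the 4 libraries, which 7215 of the 9948 passed, and 7210 were called lower at a Benjamini-Hochberg adjusted p under 0.05. The background was 100% (39696 of 39701 H3K27me1 peaks), so this count sets nothing apart. With no filter, 9669 of 9948 were called, and without DMSO replicate 2 all 4298 that passed the filter, where the lone DMSO library is assumed to vary like the inhibitor libraries. The filter was passed mainly through the DMSO libraries, with median reads a peak of 11 and 15 against 1 and 3 after the inhibitor. The median log2 change over peaks tested was -3.88 here and -4.56 over all, and understates the change of low peaks. It was -3.42 and -4.42 with no filter, and -6.41 and -6.97 with a pseudocount of 0.1. The 3 largest changes at the pseudocount of 1, which makes them smaller at low peaks, were at peaks with H3K27me3 of 2.57 to 3.52 times the library mean after DMSO. At chr8:19949501-19952500, outside any gene, DMSO libraries had 91 and 110 reads and inhibitor libraries 4 and 6 (limma log2 -6.90 ± 0.26, SE, adjusted p 2.49e-06). Its untreated H3K27me3 was 2.83 times the library mean, the highest of all H3K27me1-only peaks. The others were chr14:116541501-116543500, with 47 and 60 reads against 3 and 0, and chr2:7763001-7765500, with 68 and 86 against 0 and 9. With a pseudocount of 0.1 the chr8 peak changed least of the 3 (log2 -8.72, against -9.11 and -9.16). Scaled to library means, its limma log2 change was -0.14 (adjusted p 0.759), and neither of the others was called (log2 -2.73 and -2.59, adjusted p 0.452 and 0.484). With median centring limma still called all 3 lower, in the same order with log2 -2.32, -2.10 and -2.08 (adjusted p 6.59e-04, 9.47e-04 and 9.83e-04). Over all peaks tested, with each library scaled to its own mean, limma called 1569 of 7215 H3K27me1-only peaks higher and 176 lower. The backgrounds were 19.8% and 0.872%. In either direction 24.2% of the H3K27me1-only peaks were called, near the 20.7% of all H3K27me1 peaks. This scaling was run only on peaks that passed the filter on reads. In relative H3K27me3, 5149 of the 9948 peaks (51.8%, background 57.2%) had both inhibitor values above both DMSO values, and 840 (8.44%, background 9.08%) had them below.

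For H3K36me2 the treatments overlapped in these regions on the spike-in scale and relative to the library mean, but not relative to the other H3K27me1 peaks. The exact test cannot pass a threshold with 2 libraries against 2. Scaled reads per window were 244 and 166 after DMSO and 291 and 171 after the inhibitor, overlapping groups (log2 0.18, pairs from -0.51 to 0.81, exact permutation p 0.667). The sign changed without DMSO replicate 2 (-0.08) and without inhibitor replicate 1 (-0.26). Relative to the library mean it was 0.716 and 0.738, then 0.685 and 0.719 (log2 -0.05, pairs from -0.11 to 0.01, exact permutation p 0.667). Relative to the other H3K27me1 peaks it was 0.392 and 0.389, then 0.429 and 0.419 (log2 0.12, pairs from 0.10 to 0.14, exact permutation p 0.333, the smallest possible). In this last measure the groups did not overlap. The other H3K27me1 peaks went from 1.83 and 1.90 of the library mean to 1.60 and 1.72 (log2 -0.17), also without overlap. H3K36me2 in the 287 peaks with H3K27me3 alone went from 0.775 and 0.796 to 0.947 and 0.983 (log2 0.30), and in the 3491 with H3K27me2 from 0.982 and 1.02 to 1.04 and 1.09 (log2 0.09). The H3K27me1-only peaks had the lowest relative H3K36me2 of the 4 sets after DMSO and after the inhibitor. In untreated cells the peaks with H3K27me3 alone were lower (0.545 and 0.681).

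Peak by peak, limma called 1 H3K27me1-only peak for H3K36me2, higher after the inhibitor, and it was the only call among the 43446 H3K27me1 peaks tested (background 0.0023%). It is chr9:65958501-65961000 in Csnk1g1, a casein kinase gene. Its DMSO libraries had 2 and 0 reads and its inhibitor libraries 20 and 5 (limma log2 3.96 ± 0.54, SE, adjusted p 6.35e-09). The other named peaks had the same SE for H3K36me2. It is thus pooled over peaks, and neither it nor the p measures the spread at this peak alone. The log2 change at this peak was 5.65 with a pseudocount of 0.1 and 2.14 with a pseudocount of 10. Scaled to library means, its limma log2 change was 3.97 with an adjusted p of 0.323. Without DMSO replicate 2 it was 2.22 with an adjusted p of 1.00, and without inhibitor replicate 1 it had too few reads to be tested. With the replicate number as a block, limma called 1918 H3K27me1-only peaks (background 7.78%), a fit whose pairing the labels do not establish. An unadjusted limma p under 0.05 was found in 127 of the 9948 H3K27me1-only peaks, 123 of them higher after the inhibitor. Over all 43446 peaks tested it was found in 148 (0.341%), a share below the 0.05 that the threshold itself allows. With a shared SE the p follows the size of the log2 change alone. Median reads a peak after DMSO were 121 and 71 here and 584 and 345 in peaks with H3K36me2. The part of read depth in this count was not tested. In 10 kb bins the share went the other way, with 138 of 15096 bins that held H3K27me1-only peaks against 12153 of all 237161. The median log2 change was 0.17 over H3K27me1-only peaks and 0.06 over all H3K27me1 peaks. Over H3K27me1-only peaks its sign changed without DMSO replicate 2 (-0.13) and without inhibitor replicate 1 (-0.22). In H3K36me2 relative to the library mean, 2100 peaks (21.1%, background 11.2%) had both inhibitor values above both DMSO values, and 2238 (22.5%, background 43.7%) had them below.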

How the data were processed

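Tracks were deposited as log2 values in 1 kb windows every 500 bp on mm10, and peak lists with a score per peak of unstated scale; both were made by the authors. Per the submitters' processing notes, Trim Galore 0.4.2, Bowtie2 2.2.6.2 and SICER were used, with the builds mm10 and dm3. Undoing the log2 gave whole multiples of a single step in 100% of windows (tolerance 0.02). The step was taken as RPM per read in untreated libraries and as the authors' spike-in factor in quantitative ones; its derivation is not given in the sources used here. Values were made linear, non-overlapping windows kept, and a window was given to a peak when at least 500 bp lay in it. Peaks were annotated with RefSeq genes (GRCm38.p6, an update of the same assembly); start sites and strands covered 18 autosomes. Treatments were compared with limma 3.58.1 (R 4.3.3, pseudocount 1, no covariate) over all 43446 peaks and with exact permutation tests over libraries. A trial of the limma fit on simulated H3K36me2 reads gave every library the same total. It thus leaves out the spread in scale between the real libraries. Reads per peak are reads per window summed, so a read across a window edge counts in each, and PCR copies are not independent molecules. Text names the 5 longest peaks, the 5 highest and lowest for H3K36me3, the 5 highest for H3K27me1, up to 3 called peaks per mark and direction, and up to 4 per gene list. Peaks, gene lists and tests were chosen with earlier results of these data known. Alternatives covered scaling, pseudocount, read filter, window assignment, length, distance to other lists, 10 kb bins and each library left out.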

Additional observations from a re-analysis of the deposited data

Results flagged for a closer look

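Chromosome X was outside the rule, and no comparison above used its data. Its H3K27me1 peaks outside the other lists also had H3K27me1 and H3K36me3 above the autosomal mean and H3K27me3 below it. Of 288 H3K27me1 peaks of 2000 bp or longer on chromosome X, 268 touched none of the other 3 lists, against 9948 of 43446 on the autosomes. In the 268 peaks H3K27me1 was 1.82 and 1.42 times the autosomal mean, above the level of all windows of the chromosome (0.399 in the second library). Their H3K36me3 was 2.30 and 2.30 (all windows 0.240 and 0.213), and their H3K27me3 0.0821 and 0.0763 (all windows 0.186 and 0.213). The H3K27me3 of the chromosome X peaks relative to the autosomal mean was 0.157 and 0.142 after DMSO and 0.711 and 0.793 after the inhibitor. All windows of the chromosome lay below the autosomal mean in the other untreated marks too, H3K27me2 at 0.313 and 0.326 and H3K36me2 at 0.221 and 0.239. The part of this lower signal in the peak levels and in the few list overlaps was not tested.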

How the results depend on the processing

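The relative changes of H3K27me3 and H3K36me2 in H3K27me1-only peaks kept their direction under the alternatives of windows, minimum length, distance and left-out library that were run. Within subsets the relative H3K36me2 change did not always keep its sign: it was 0.0041 from 3000 to below 5000 bp and 0.03 outside coding genes, against -0.11 inside them. The exact test cannot pass a threshold with 2 libraries against 2, so this says nothing of significance. On the spike-in scale the H3K36me2 change of 0.18 reversed with DMSO replicate 2 left out (-0.08) and with inhibitor replicate 1 left out (-0.26); over all left-out libraries it ran from -0.26 to 0.51. The single H3K36me2 call was lost (0 called) with library totals, median centring, a pseudocount of 10 and 10 kb bins. An unadjusted limma p under 0.05 was found in 1861 of 9948 H3K27me1-only peaks with library totals, against 6648 of all 43446. The counts were 2088 against 4663 with median centring, and 98 against 116 with a pseudocount of 10. In 10 kb bins they were 138 of 15096 with such peaks against 12153 of all 237161, there the lower share. With a library left out, the log2 change at the called peak ran from 2.22 to 5.70, and without inhibitor replicate 1 it was not tested. With a replicate block in limma, 1918 H3K27me1-only peaks were called for H3K36me2 (1834 higher, 84 lower) of 3382 in all (7.78% of the peaks tested). Deviations of same-numbered libraries from their group means correlated at 0.46 for H3K36me2 and 0.02 for H3K27me3 across peaks, and with 2 pairs the labels' numbers are not shown to pair the libraries. The block left H3K27me3 at 7215 called. H3K27me3 calls in H3K27me1-only peaks numbered 1745 with library totals (1569 higher, 176 lower), 24.2% against 20.7% of all peaks tested. They numbered 4478 with median centring (3744 higher, 734 lower), 62.1% against 67.7%, and 13040 of 13048 with 10 kb bins, which are other units. They ran from 4298 to 6943 with a library left out, the lowest without DMSO replicate 2, where fewer peaks pass the filter on reads (4298 of 4298). Median centring split all calls into 13102 higher and 13772 lower, against 0 and 39696. H3K36me3 relative to the library mean (1.77) was 0.933 as the median over peaks, 1.97 in peaks of 5000 bp or longer and 1.53 with no other list within 5000 bp, and 1.68 to 1.87 with a library left out. Relative to other H3K27me1 peaks (0.594) it was 0.660 and 0.514 under the last 2 choices, and 0.549 to 0.640 with a library left out. The share of H3K27me1-only peaks in a coding gene (40.8%) was 53.9% at 5000 bp or longer and 37.7% with no other list within 5000 bp. Depth limits H3K27me3 most: the median peak held 1 and 3 reads in the inhibitor libraries.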
